A study of Zea mays with 12 samples.

Results

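A set of 8 regulators of maize seed development was followed across 3 organs of the inbred line B104 under drought. They were o2 (GRMZM2G015534), pbf1 (GRMZM2G146283), mrp1 (GRMZM2G111306), nkd1 (GRMZM2G129261), nkd2 (GRMZM5G884137), vp1 (GRMZM2G133398), fie1 (GRMZM2G118205) and fie2 (GRMZM2G148924). The 8 genes were chosen by identifier, for their known roles in the endosperm and the embryo. Of the 8, 6 were among the 34423 genes listed in at least 1 library, and 4 (nkd1, nkd2, fie1 and fie2) passed the filter on low counts that kept 26089 genes for testing, fie1 only because of its counts in the drought kernel. The control ears came from watered plants at V9, the stage with 9 leaves, and the control ear leaves and kernels from watered plants at 5 days after pollination. The drought ears, ear leaves and kernels came from field plants of the same line and stages whose soil water had been held low for some days. Each of these 6 groups had 2 libraries, and each library pooled organs of several plants, so that the spread between libraries is that between pools. The ear was sampled at another stage than the leaf and the kernel, so organ and stage cannot be told apart wherever the ear is compared with them.

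The endosperm is the tissue of the cereal seed that feeds the embryo, and at a few days after pollination it passes from a syncytium to a cellular tissue whose cell types are being laid down. The products of o2, a bZIP factor, and pbf1, a DOF factor, activate the zein storage protein genes during grain filling, while mrp1 encodes the MYB-related activator of genes of the basal transfer layer, through which sugars enter the seed. The nkd1 and nkd2 pair encodes INDETERMINATE domain zinc finger proteins needed for aleurone identity, vp1 encodes the B3 domain factor through which abscisic acid (ABA) drives embryo maturation, and fie1 and fie2 encode WD-repeat proteins of Polycomb repressive complex 2 (PRC2), which methylates histone H3, with fie1 known as an imprinted gene of the endosperm.

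The libraries held between 3429219 and 5452598 rounded counts, the smallest being control leaf replicate 2 and all others holding at least 5117208. The floor of 3 counts per library corresponded to between 0.465 and 1.31 CPM (counts scaled to a fixed library size). Replicates differed more in the control leaf and the control kernel, with a chi-square per gene of 3.98 and 3.04, than in the other groups, with 1.27 to 1.37. The TMM factors, which correct library size for composition, ran from 0.648 in control leaf replicate 1 to 1.26. Marker genes followed the labelled organs in the leaf. Leaf photosynthesis markers summed to between 59570 and 62172 CPM in the control leaf and to under 183 CPM in the kernel. The kernel held endosperm markers, but the 1 embryo marker that could be matched, lec1, had 1 count in drought kernel replicate 1 and 0 elsewhere. In whole organs, fewer cells of a type and less RNA per cell cannot be told apart.

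Levels were first described as FPKM, which is scaled to gene length. For nkd1, the FPKM was 5.20 and 4.13 in the control ear, 3.86 and 4.04 in the drought ear, 16.7 and 14.7 in the control leaf, 15.4 and 17.2 in the drought leaf, 14.2 and 12.4 in the control kernel, and 6.50 and 6.51 in the drought kernel. The leaf was the highest organ and the ear the lowest, and only in the kernel did the control and drought libraries lie well apart. For nkd2, the FPKM was 1.64 and 1.36 in the control ear, 0.46 and 1.40 in the drought ear, 8.64 and 12.1 in the control leaf, 3.32 and 4.61 in the drought leaf, 1.04 and 0.37 in the control kernel, and 6.22 and 7.81 in the drought kernel. The control leaf stood first and the drought kernel next, and the drought ear overlapped both the control ear above it and the control kernel below it.

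Both FIE genes were read on the same scale. For fie2, the FPKM was 29.3 and 32.2 in the control ear, 21.9 and 20.4 in the drought ear, 4.99 and 4.63 in the control leaf, 10.8 and 11.03 in the drought leaf, 16.6 and 19.3 in the control kernel, and 10.1 and 10.48 in the drought kernel. The ear was the highest organ and the control leaf the lowest, and no 2 groups overlapped, although drought leaf and drought kernel were neighbours. The fie1 gene was listed in the 4 kernel libraries alone, at 0.68 and 1.46 FPKM in the control kernel and 1.59 and 1.09 FPKM in the drought kernel, from 7, 15, 16 and 11 counts. Of the tested members, only fie1 was seen in the kernel alone. It entered the tested genes through its kernel counts, so this is a description, and whole kernels do not place it in endosperm or embryo. The nkd1 and nkd2 genes were highest in a leaf group and fie2 in the ear.

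**Figure D1:**
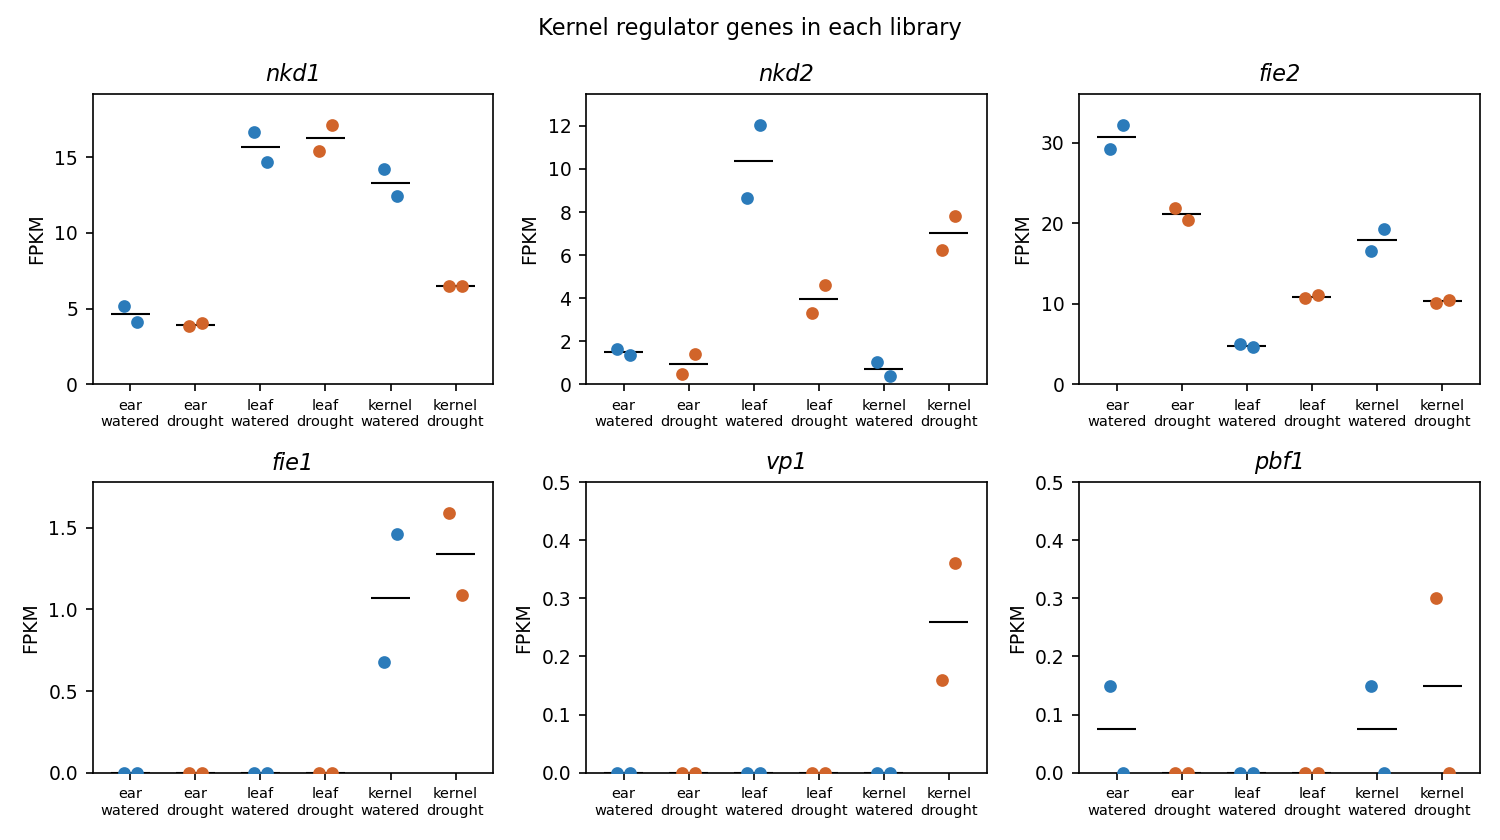
FPKM of the 6 listed genes in each of the 12 libraries, on an axis of its own for each gene, with control (watered) libraries in blue, drought libraries in orange and a bar at the mean of each group of 2. In the kernel nkd2 lay at 1.04 and 0.37 under control conditions and at 6.22 and 7.81 under drought, while nkd1 lay at 14.2 and 12.4 and then at 6.50 and 6.51.

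The remaining 4 genes were at or near the limit of detection. The vp1 gene was listed in the drought kernel alone, with 2 and 5 counts (0.16 and 0.36 FPKM). The pbf1 gene had 1 count in control ear replicate 1, 1 in control kernel replicate 1 and 2 in drought kernel replicate 1, and was at 0 in the other 9 libraries. Its identifier matches 2 overlapping genes of the reference annotation, and reads of one could have been counted for the other. The other identifier of that pair, GRMZM2G146267, had between 144 and 612 counts in every library, so that the low count of pbf1 cannot be told apart from a count assigned to its neighbour. No row for o2 or mrp1 was found in any library, which was read as 0, though whether the counting included them is not shown by a list that leaves out genes without reads. With 2 counts at the most for pbf1 and 5 for vp1, no fold change was computed, and a difference between conditions was not detectable at this depth.

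In the watered plants, the organs were compared with edgeR's quasi-likelihood test, with p adjusted by Benjamini-Hochberg over all tested genes, and a gene was called where its adjusted p was under 0.001 and it differed by 1 or more on the log2 scale. Between the control kernel and the control ear, 1 of the 3 members with counts in both organs was called, against 24.0% of all tested genes. The aleurone gene nkd1 was higher in the kernel, by 1.48 on the log2 scale (SE 0.16, adjusted p = 2.2e-09). For the endosperm gene fie1, the mean in the control kernel was 3.61-fold the mean floor of the control ear. This is given as a description with no test, since fie1 entered the tested genes through the kernel alone. For nkd2 (-1.14, SE 0.49, adjusted p = 0.039) and fie2 (-0.87, SE 0.12, adjusted p = 2.9e-07) the kernel values were lower but did not meet both criteria, and the nkd2 value was -2.07 without control kernel replicate 1 and -0.57 without control kernel replicate 2.

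Between the control kernel and the control leaf, 2 of the same 3 were called, against 44.9% of all tested genes. The level of nkd2 was 1.53 ± 1.05 CPM in the kernel and 41.6 ± 8.82 CPM in the leaf (SD, n = 2 each), a log2 difference of -4.73 (SE 0.43, adjusted p = 3.7e-13). For nkd1 the log2 fold change was -1.11 (SE 0.13, adjusted p = 9.6e-09), a call that depended on the scaling. Scaled to library size without TMM factors, which moved the median of all genes in this comparison from 0.00 to 0.86, the nkd1 value was -0.26 (adjusted p = 0.058), and the FPKM of both organs were close. The fie2 value of 0.92 (SE 0.18, adjusted p = 2.1e-05) stayed below the fold criterion with TMM factors and was 1.78 with library size. The mean fie1 level in the control kernel was 1.63-fold the mean floor of the control leaf, again as a description with no test. By library this did not hold throughout. The level in control kernel replicate 1 was 1.14 CPM, below the floor of 1.31 CPM in control leaf replicate 2. Between the control ear and the control leaf, all 3 were called, against 48.7%. The values were -2.59 for nkd1 (adjusted p = 4.4e-15), -3.58 for nkd2 (adjusted p = 5.9e-12) and 1.79 for fie2 (adjusted p = 3.8e-11).

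Drought was then tested in each organ, and the 1 member called higher by both criteria was nkd2, in the kernel. Its rounded counts there were 14 and 5 in the control and 85 and 107 under drought. The drought libraries lay far above the control libraries. The mean was 1.53 ± 1.05 CPM in the control kernel and 18.0 ± 2.86 CPM in the drought kernel (SD, n = 2 each), a log2 difference of 3.54 (SE 0.43, 95% interval 2.65 to 4.44, adjusted p = 1.1e-09). In this comparison 3 members passed the filter without the drought kernel, and 1 of them was called. Of all tested genes 27.1% were called (13.7% higher and 13.5% lower). Without control kernel replicate 1 the nkd2 value was 4.47, and without control kernel replicate 2 it was 2.97.

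The other aleurone gene went the other way in the same libraries. With 209 and 183 counts in the control kernel and 94 and 95 under drought, nkd1 had means of 31.4 ± 3.63 and 17.7 ± 0.0749 CPM. The groups did not overlap, and the log2 fold change was -0.82 (SE 0.14, adjusted p = 1.4e-05), which is past the p criterion but not the fold criterion. With library size scaling, which lowered the median of all genes in the kernel from 0.00 to -0.20, the nkd1 value was -1.02. For fie2, with 152 and 177 counts in the control kernel and 98 and 89 under drought, the log2 fold change was -0.59 (SE 0.14, adjusted p = 0.0006), also short of the fold criterion. For fie1, which passed the filter only because of the drought kernel, the value is given as a description with no test. It was 0.52 with an interval from -0.69 to 1.73 (SE 0.59). With 7 to 16 counts per library, a change in either direction was not detectable within that interval. The fie1 value was 0.09 without control kernel replicate 1 and 1.13 without control kernel replicate 2. Under drought, the mean of fie1 in the kernel was 5.43-fold the mean floor of the drought ear and 3.78-fold that of the drought leaf.

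**Figure D2:**
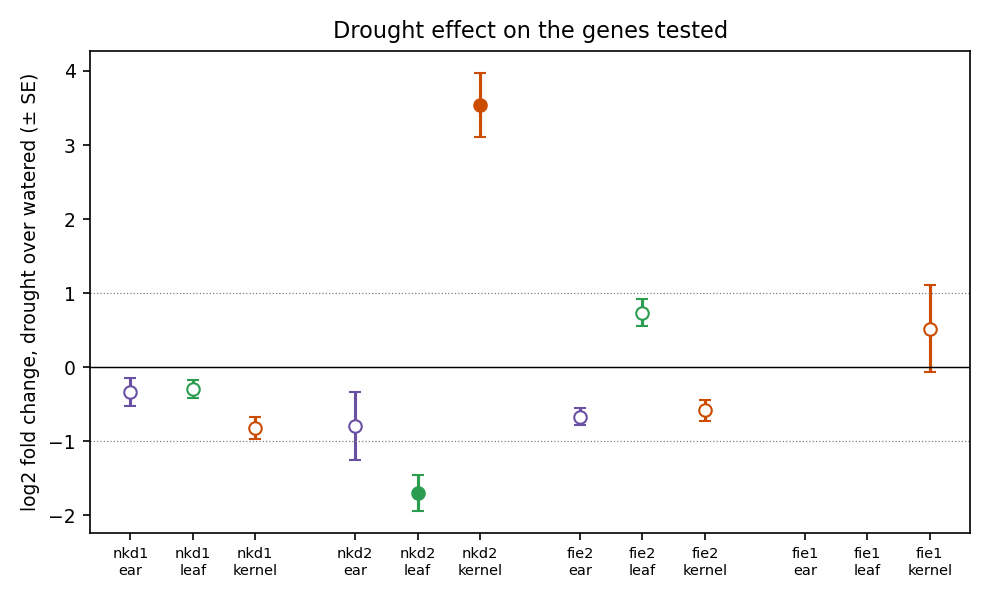
Log2 fold change of drought over watered (± SE of the edgeR fit) in the ear, the leaf and the kernel, with 2 libraries per group, filled circles for genes that met both criteria and dotted lines at a log2 fold change of -1 and 1. The 2 filled circles are nkd2 in the leaf (-1.70) and nkd2 in the kernel (3.54), and fie1 has no value in the ear and the leaf, where all libraries were at 0. The fie1 value in the kernel is a description, as this gene passed the filter only because of the drought kernel.

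In the leaf, nkd2 fell. Its counts were 125 and 110 in the control, of which the latter came from the smallest library, and 48 and 65 under drought. In CPM this was 35.4 and 47.9 against 10.6 and 14.6, a log2 difference of -1.70 (SE 0.25, adjusted p = 1.3e-06). It was the 1 member called of the 3 with leaf counts, against 16.3% of all tested genes (7.14% higher and 9.19% lower). In the same libraries the leaf photosynthesis markers summed to between 59570 and 62172 CPM in the control and between 10645 and 10764 CPM under drought, with 3 of 4 called lower, and their part in the nkd2 change was not tested. On the FPKM scale with limma the fall was -1.19 with a pseudocount of 1 (adjusted p = 0.0047) and -1.36 with 0.1 (adjusted p = 0.056), neither of which met the criteria. For fie2 the leaf value was 0.73 (SE 0.18, adjusted p = 0.0013), from 52 and 29 counts in the control to 104 and 103 under drought. It was 1.07 with library size scaling (adjusted p = 9.1e-06), which raised the median of all genes in the leaf from -0.03 to 0.28. The nkd1 value was -0.30 (SE 0.12, adjusted p = 0.047) with TMM factors and 0.039 with library size, and the mean FPKM was 15.7 in the control leaf and 16.3 in the drought leaf, so that its direction depended on the scaling.

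In the ear 0 of the 3 members with ear counts were called by edgeR, and 0 by DESeq2 and by limma, against 7.24% of all tested genes (3.95% higher and 3.29% lower), and 1 had an unadjusted p under 0.05. That gene was fie2, with 285 and 309 counts in the control ear and 200 and 188 under drought. The libraries did not overlap, and the log2 fold change was -0.67 (SE 0.11, adjusted p = 2.6e-05), short of the fold criterion. For nkd1 (-0.34, SE 0.19, adjusted p = 0.17) and nkd2 (-0.80, SE 0.45, adjusted p = 0.17) the 95% intervals included 0. The nkd2 value in the ear was set by 1 library, and was -0.20 without drought ear replicate 1 and -1.83 without drought ear replicate 2.

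Whether the effect of drought differed between organs was tested as an interaction, with a threshold of 0.05 on the adjusted p. For the kernel against the ear, 1 of the 3 members with counts in every organ differed, against 39.3% of all tested genes. It was nkd2, by 4.34 on the log2 scale (SE 0.63, adjusted p = 9.4e-07). For the kernel against the leaf, all 3 differed, against 45.8%. The differences were 5.24 for nkd2 (SE 0.50, adjusted p = 5.3e-11), -1.32 for fie2 (SE 0.23, adjusted p = 2.1e-05) and -0.52 for nkd1 (SE 0.19, adjusted p = 0.024). For the leaf against the ear, 1 of 3 differed, against 35.9%, and this was fie2, by 1.40 (SE 0.22, adjusted p = 5.2e-06). So nkd2 moved in opposite directions in leaf and kernel. The fie2 values were higher under drought in the leaf alone and lower in the ear and the kernel. In no single organ did the fie2 effect meet both criteria for a call. The contrasts of one organ share its libraries and are not independent of each other.

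As nkd1 and nkd2 are duplicate genes, their balance was computed within each library. The share of nkd2 in the summed FPKM of both was 6.81% and 2.89% in the control kernel and 48.9% and 54.5% in the drought kernel. In the leaf it was 34.1% and 45.0% in the control and 17.7% and 21.2% under drought. In the ear it was 24.0% and 24.8% in the control and 10.6% and 25.7% under drought. The kernel groups lay widest apart, the leaf groups were ordered the other way, and the ear groups overlapped. The summed FPKM was 15.3 and 12.8 in the control kernel and 12.7 and 14.3 in the drought kernel, which overlapped. With 2 libraries against 2, an exact permutation test (two-sided) cannot give a p below 0.333, so the shares are given as a description. Both genes had fractional expected counts in all 12 libraries, and so did their sum, so that some reads were shared beyond the pair. Whether that division of reads affected the balance was not tested.

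**Figure D3:**
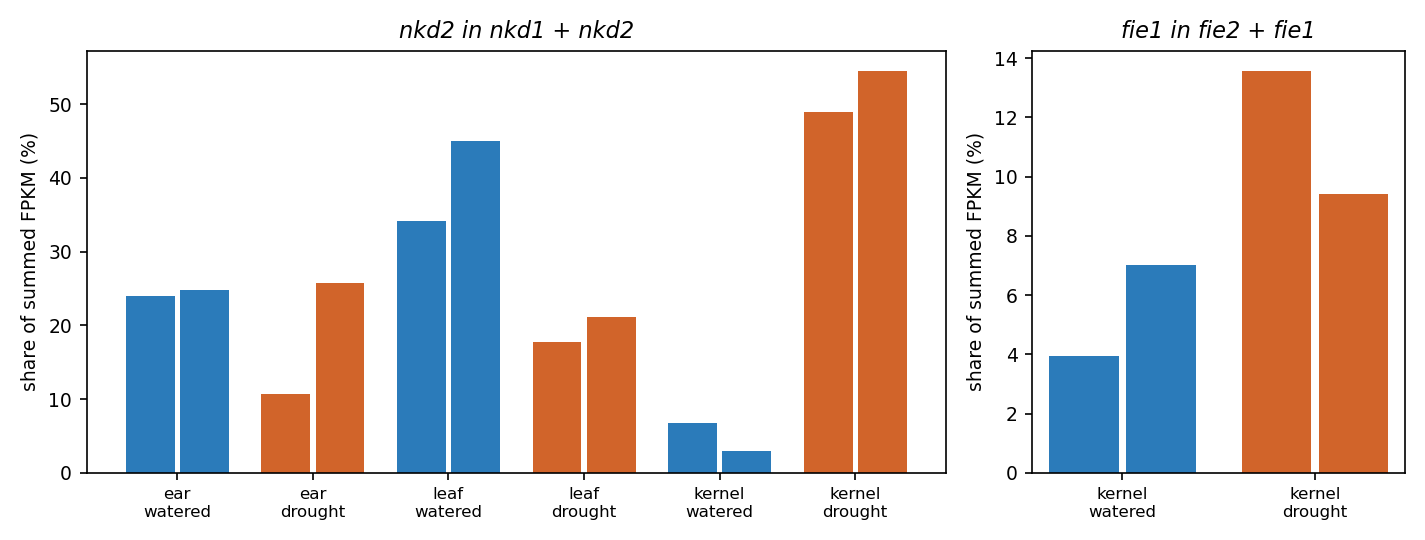
Share of nkd2 in the summed FPKM of nkd1 and nkd2 in each library, and share of fie1 in the summed FPKM of fie1 and fie2 in the kernel libraries, in percent from 0 with 1 bar per library. The nkd2 share was 6.81% and 2.89% in the control kernel and 48.9% and 54.5% in the drought kernel.

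The FIE genes were compared in the same way. In the kernel, fie1 made up 3.94% and 7.03% of the summed FPKM of both genes in the control and 13.6% and 9.42% under drought. Both drought shares were above both control shares, with a numerator of at most 16 counts. In ear and leaf all FIE counts were those of fie2. The fie1 counts were whole in every library, while those of fie2 were fractional in 10. The gene length given for fie2, an average over transcripts weighted by their abundance, ran from 1646 to 1903 bases over the libraries, while that of fie1 was 1948 bases throughout.

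The genes whose levels over the 12 libraries were most like those of a member were found by Pearson's r of log2(CPM + 1), as a description. For nkd1 these were GRMZM2G472167 (r = 0.996) and GRMZM2G115660 (r = 0.992), both highest in the leaf. For nkd2 they were GRMZM2G136680 (r = 0.973) and GRMZM2G356076 (r = 0.965), which were likewise lower in the drought leaf than in the control leaf and higher in the drought kernel than in the control kernel. For fie1 they were GRMZM2G043027 (r = 0.993) and GRMZM2G097719 (r = 0.990), at 0 in ear and leaf and at a few CPM in the kernel. For fie2 they were GRMZM2G120740 (r = 0.980) and GRMZM5G866734 (r = 0.972), highest in the control ear. The 12 points share libraries and fall into 6 groups of replicates, so that r mostly follows the group means.

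The genes that these regulators are known to act with or on were then counted in the kernel under drought, by lists of which several symbols had no match in the reference table. All tested genes together had a median log2 value of 0.00 there, and 13.7% of them were called higher and 13.5% lower. Genes that passed the filter only because of the drought kernel had to be high there, and their values are given as a description with no test. Among zein genes, the known targets of the o2 and pbf1 products, 1 of 30 identifiers passed the filter and was called higher. It was zp27 (GRMZM2G138727), which encodes a gamma-zein, with 5 and 2 counts in the control kernel and 20 and 19 under drought (log2 fold change 2.65, SE 0.69, adjusted p = 0.00053). These are few counts, and the ear had as many, with 30 and 17 in the control. The call was lost in 13 of 19 alternatives.

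Of the genes of the transfer layer, where mrp1 acts, 9 identifiers were listed and 5 were tested, of which 4 passed the filter only because of the drought kernel, among them every gene of the list called higher. A basal layer gene, betl1, had 0 and 1 counts in the control kernel and 10 and 17 under drought. Of the meg2 identifiers, GRMZM2G088896 had 1 and 2 counts and then 19 and 22, and GRMZM2G094054 had 8 and 7 and then 23 and 39. The drought libraries were above the control libraries for each of these. The 1 gene of the list that passed on its other libraries, mn1, the cell wall invertase of the transfer layer, had 498 and 419 counts in the control and 93 and 75 under drought, a log2 difference of -2.22 (SE 0.17, adjusted p = 2.7e-12).

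Of the ABA and maturation genes, among which are known targets of the vp1 product, 7 of 9 identifiers were tested. Of the 6 that passed the filter without the drought kernel 3 were called higher, against 13.7% of all tested genes, and these were rab17, glb1 and vp14, which encodes an enzyme of ABA synthesis. The dehydrin gene rab17 had 125 and 119 counts in the control kernel and 43539 and 45568 under drought, a log2 difference of 8.74 (SE 0.08, adjusted p = 5.6e-32). The oleosin gene ole1, which passed only because of the drought kernel, had 0 and 1 counts and then 185 and 184. The globulin gene glb1 had 2 and 5 counts and then 294 and 260 (log2 fold change 6.47, SE 0.53, adjusted p = 1.4e-17). In the ear 3 genes of this list were called higher, against 3.95% of all tested genes, among them rab17 (5.88) and glb1 (4.44), and in the leaf 2 were, against 7.14%. The vp1 gene itself had no count in the ear or the leaf.

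Of the 5 PRC2 genes, all tested, fie1 passed the filter only because of the drought kernel. Of the 4 others 0 were called by edgeR in the kernel, against 27.1% of all tested genes, and 3 had an unadjusted p under 0.05. In so few genes a count of 0 cannot be told apart from that share. The count was 0 in each of 19 alternatives too, DESeq2 and limma among them, and the median of all 5 values was 0.24. The values for the E(z)-type methyltransferase genes were -0.33 for mez1, 0.24 for mez2 and 0.49 for mez3. Of the other kernel regulators, 7 of 9 identifiers were tested and 1 was called higher, against 13.7% of all tested genes, with a median of -0.13. It was ohp1, a bZIP gene related to o2, with 20 and 32 counts and then 50 and 65 (log2 fold change 1.37, SE 0.31, adjusted p = 0.00033), which was not called by DESeq2 or with library size scaling. The receptor kinase gene cr4, needed for the aleurone, had a value of -0.87 (SE 0.10, adjusted p = 2.2e-08), below the fold criterion.

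**Figure D4:**
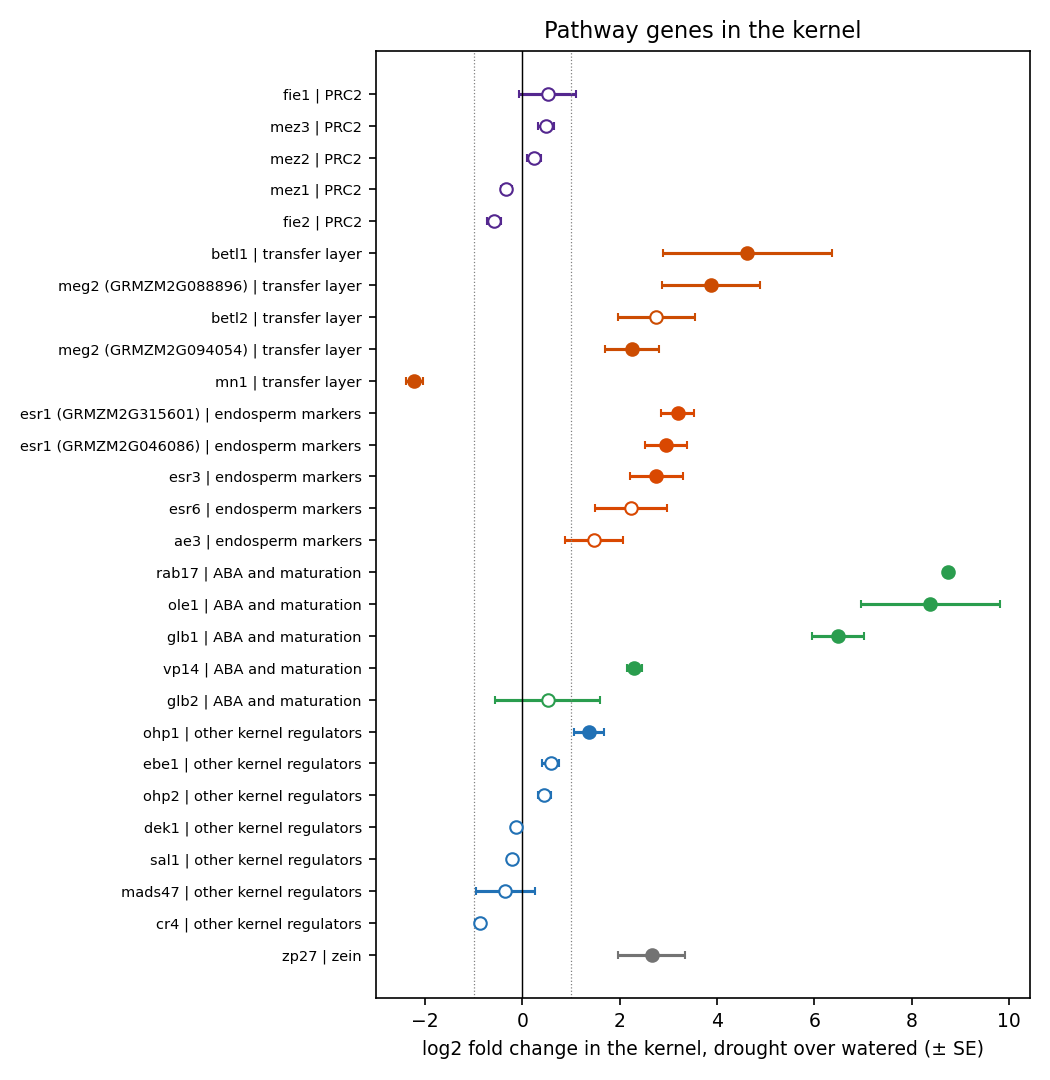
Log2 fold change in the kernel, drought over watered (± SE of the edgeR fit, 2 libraries per group), of the tested list genes that had a fitted error, grouped by list, with filled circles for genes that met both criteria and dotted lines at -1 and 1. Apart from mn1 at -2.22, the filled circles lie above 0, from ohp1 at 1.37 to rab17 at 8.74, and the 5 PRC2 genes lie between -0.59 and 0.52. The values of fie1, betl1, betl2, meg2, esr3, esr6, ae3, ole1 and esr1 (GRMZM2G046086) are a description, as these genes passed the filter only because of the drought kernel.

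The levels of cell type markers in the kernel samples moved with drought too. Endosperm markers summed to between 20.2 and 21.9 CPM in the control kernel and between 71.7 and 86.0 CPM in the drought kernel. The sum was as high in the control leaf, between 20.4 and 25.7 CPM, owing to ebe1, a gene expressed in every organ, with 14.0 and 12.3 CPM in the control kernel and 20.4 and 25.2 CPM in the control leaf. Of 8 tested markers 6 passed the filter only because of the drought kernel, and of the other 2 the 1 called higher, against 13.7% of all tested genes, was esr1. Under GRMZM2G315601 it had 19 and 14 counts in the control kernel and 112 and 147 under drought (log2 fold change 3.19, SE 0.34, adjusted p = 3.3e-09). Markers of the maternal kernel and the ear meristem summed to between 142 and 164 CPM in the control kernel. Under drought their sum was between 109 and 112 CPM. Of these markers 1 of 7 was called lower, against 13.5% of all tested genes. It was tga1 (-2.74, SE 0.20, adjusted p = 6.8e-14). The members of this list did not move together, with values of -0.90 for td1 (adjusted p = 5.1e-08), 0.69 for fea2 (adjusted p = 1.6e-06) and -0.11 for kn1 (adjusted p = 0.48). In the ear the same markers summed to between 523 and 548 CPM and then between 394 and 398 CPM. These changes accompanied the higher nkd2 and the lower nkd1 and fie2 values in the kernel, and the lower fie2 value in the ear, and their part in them was not tested.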

How the data were processed

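Ears, ear leaves and kernels of control and drought plants gave 2 libraries per group. Polyadenylated RNA was selected on oligo(dT) beads and sequenced by Illumina chemistry, and the reads were filtered and aligned by the authors. The aligner, counting program and genome build are not given in the sources used here. The expected counts deposited by the authors are estimated reads per gene, with fractions where reads were shared. The FPKM deposited by the authors scale these to gene length and mapped reads. Each list leaves out genes without reads, which were read as 0.

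After rounding, the expected counts were modelled in edgeR 4.0.16 (R 4.3.3) with 1 mean per group (TMM factors, filterByExpr, quasi-likelihood F test, Benjamini-Hochberg adjustment) in 1 model of 6 groups and 12 libraries, with 6 residual and 20.0 prior degrees of freedom. For a call, the adjusted p had to be under 0.001 and the log2 fold change 1 or more in size. Interactions needed an adjusted p under 0.05. In simulated kernel data with 25045 genes tested, the criteria found 99 of 100 genes changed 4-fold and 100 of 100 changed 8-fold, with 1 false call. The changed genes were drawn from those with more counts in the kernel, and the spread followed the same trend in all groups. The result thus does not cover genes with few counts or the wider spread of the control kernel. The p-values and the 95% intervals on log2 values rest on a spread between pools of plants that the 6 groups share. That spread is drawn largely from other genes. It can understate the spread in the control leaf and the control kernel, whose replicates differed more.

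The 8 genes and the lists were chosen with earlier results of these data known. Named genes are the 8, up to 3 called genes of each list per direction in the kernel, and for each tested member the 2 genes with the most similar levels. Values of other list genes were named after they were seen. List symbols were matched to identifiers through the RefSeq table (Zm-B73-REFERENCE-NAM-5.0). Of the symbols, 6 of 13 matched for zeins, 10 of 17 for the transfer layer, 11 of 17 for ABA and maturation, 5 of 11 for PRC2 and 9 of 17 for other kernel regulators. Among cell markers 10 of 10 matched for the endosperm, 1 of 4 for the embryo, 8 of 8 for maternal kernel and meristem and 5 of 9 for the leaf. Sequences of the genes were not analysed here.

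The alternatives were DESeq2 1.42.0, library size without TMM factors, no filter, only the groups compared, an adjusted p under 0.05, limma 3.58.1 on log2(FPKM + 1) or log2(FPKM + 0.1), a block for the replicate number, and the omission of each library in turn. Their use on the list counts and on the differences between organs was added after seeing the data.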

Additional observations from a re-analysis of the deposited data

Results flagged for a closer look

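In all, 5 differences of the drought effect between organs passed the interaction test. This was an edgeR quasi-likelihood F test with p adjusted by Benjamini-Hochberg and 2 libraries per group. For kernel against ear 1 of 3 members passed, against 39.3% of all tested genes. For kernel against leaf all 3 passed, against 45.8%, and for leaf against ear 1 of 3 did, against 35.9%. In so few genes these counts cannot be told apart from those shares. The nkd2 effect in the kernel exceeded that in the ear by 4.34 on the log2 scale (adjusted p = 9.4e-07) and that in the leaf by 5.24 (adjusted p = 5.3e-11), since nkd2 was higher in both drought kernel libraries and lower in both drought leaf libraries than in any control library of the same organ. The fie2 effect in the leaf exceeded that in the ear by 1.40 (adjusted p = 5.2e-06), and the kernel minus leaf difference was -1.32 (adjusted p = 2.1e-05). The kernel minus leaf difference of nkd1 was -0.523 (adjusted p = 0.024), and it did not pass in 5 of the fits that left out 1 library. The groups hold 2 libraries, too few for a check of single libraries that stand apart.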

How the results depend on the processing

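Of 532 alternative values for the 28 fitted log2 values of the members, 493 kept their direction and side of the criteria, 13 no longer passed, 15 passed anew and 11 changed sign, none of them past the criteria under either setting. These were the nkd1 value in the leaf (0.039 with library size, 0.051 with limma on log2(FPKM + 1) and 0.054 on log2(FPKM + 0.1)), the fie2 difference between kernel and ear (-0.21 with library size, -0.22 on log2(FPKM + 1), -0.25 on log2(FPKM + 0.1), and -0.0031 to 0.17 when a library was left out), and, when a library was left out, the differences between leaf and ear of nkd1 (-0.12 to 0.20) and nkd2 (-1.49 to 0.14). With library size scaling, 2 members were called in the leaf under drought, 2 in the kernel under drought, and 2 had unequal effects between kernel and ear. With limma on log2(FPKM + 0.1), 2 were called in the kernel under drought, and with either FPKM scale 2 had unequal effects between kernel and ear. Between control kernel and control ear, nkd1 was called in the main fit, with DESeq2 and with only the groups compared. The fie1 gene passed the criteria in the main fit, but not with DESeq2 or with only the groups compared. It entered the tested genes through the kernel alone, so its passing is not counted as a call. Leaving out a library gave 1 to 3 called between control kernel and control leaf (1 without control kernel replicate 2), 2 to 3 unequal effects between kernel and leaf, and 1 to 2 between leaf and ear (2 without drought ear replicate 1). Same-numbered control and drought libraries did not deviate together (r over genes 0.02 in the ear, -0.02 in the leaf and 0.02 in the kernel), and with the replicate block 0, 1 and 1 members were called in ear, leaf and kernel under drought, and nkd2 in the kernel had a log2 fold change of 3.54. Among the list counts in the kernel, which include genes that passed the filter only because of the drought kernel, the zein call was lost in 13 of 19 alternatives, the transfer layer had 3 higher calls, 0 with DESeq2 and 1 without the filter, and 1 lower call, 0 with limma on log2(FPKM + 0.1), and the endosperm markers had 4, 2 with DESeq2 and 7 with limma on log2(FPKM + 1). The precision of fie1, vp1 and pbf1 is limited by their few counts. The planned description of promoter and protein sequences was not run.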

Other observations

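The zein genes, which were nearly silent, had their highest summed level in the ear and not in the kernel, at 7.68 and 8.78 CPM in the control ear, 0.62 and 0.31 CPM in the drought ear, 0.81 and 0.47 CPM in the control kernel and 6.57 and 6.36 CPM in the drought kernel. The order of control and drought was thus opposite in the 2 organs, while o2 had no listed count and pbf1 at most 2 counts in any library.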
